A study of Mus musculus with 6 samples.

Results

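Complement genes were examined in the left ventricles of adult mice exposed to caffeine *in utero*. The 9 genes were chosen by symbol, to cover recognition, the central proteins, the alternative pathway and regulation: C1qa, C1qb, C1qc, C3, C4b, Cfp, Cfd, Cd55 and Serping1. All 9 were found among the 43629 genes listed for each heart, and 8 had enough counts to be tested. RNA was sequenced from 6 left ventricles of male F1 CD-1 mice aged 1 year. For 3 of them the dam had been injected i.p. once daily with vehicle (normal saline), and for the other 3 with caffeine at 20 mg/kg. Every heart in both groups therefore came from an injected dam. Dosing ran from embryonic day 6.5 to 9.5, although one field of the labels ends it at 10.5. No source states which dam each heart came from, so litter mates cannot be told from unrelated mice, and each p-value describes the spread between these 6 hearts alone.

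Complement is a cascade of plasma and tissue proteins that tags cells and debris for removal. The classical route starts when C1q, a bundle of C1qa, C1qb and C1qc chains, binds its target and the attached proteases C1r and C1s cut C4 and C2. The alternative route uses factor B, cut by factor D (Cfd) and held on the surface by properdin (Cfp), and both routes converge on cleavage of C3. Cells protect themselves with regulators such as Cd55, which takes apart the C3-cleaving complexes, and Serping1, the C1 inhibitor. The liver makes most of the complement proteins in plasma, whereas tissue C1q is made largely by macrophages.

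The 3 C1q genes lie beside each other on the minus strand of chromosome 4 (GRCm38), with C1qa at chr4:136895917-136898803, C1qc at chr4:136889804-136893065 and C1qb at chr4:136880129-136886187. Promoter sequence was available from RefSeq (GRCm38.p6) for 6 of the 9 genes, C1qb, C1qc, C3, Cfp, Cfd and Cd55. In windows of 300 bases, 250 before the start and 50 after it, both strands were searched for the letters of the gamma-activated site, TTCNNNGAA, and for core letters of the interferon-stimulated response element, GAAANNGAA. None of the 6 windows held either, against 8.3% and 8.56% of 32851 promoters of the same length. At such low shares, no match in 6 windows is a likely outcome, so this sets the genes apart from other promoters in no way. The letters AGGAAG, which include the GGAA core of ETS factors such as the macrophage factor PU.1, were chosen and looked for after the sequences had been read. They stood in 2 of the 6 stretches searched before the start, those of C1qb and C1qc, and in 29.5% of all 250-base windows before a start. Only 99 bases were searched for C1qc, so its stretch is not like those windows. These matches describe letters and not binding sites. The bases before the start of both genes are shown because their levels put the 6 hearts in the same order. They read 5′ to 3′ on the minus strand, with the matches on either strand in capitals. The C1qb stretch is chr4:136886201-136886450 and its match begins 52 bases before the RefSeq start. The C1qc stretch is chr4:136893066-136893164, kept to the bases outside the gene as annotated by GENCODE. Its matches begin 194 and 157 bases before the RefSeq start, which lies inside that gene.
C1qb: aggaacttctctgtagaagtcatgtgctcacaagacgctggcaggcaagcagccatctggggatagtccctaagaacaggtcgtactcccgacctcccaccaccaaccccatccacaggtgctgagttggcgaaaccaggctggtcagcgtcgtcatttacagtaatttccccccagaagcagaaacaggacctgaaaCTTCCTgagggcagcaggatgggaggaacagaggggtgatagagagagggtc
C1qc: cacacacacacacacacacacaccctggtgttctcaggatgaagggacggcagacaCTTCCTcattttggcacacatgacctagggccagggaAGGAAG

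The hearts differed in depth. Total counts ran from 9228359 to 10483101 in the vehicle hearts and from 7613011 to 9153997 in the caffeine-treated hearts, so that each caffeine total was below each vehicle total. Levels are given as CPM, the counts scaled by TMM to a library of 1000000 counts, at which 3 counts correspond to 0.284 to 0.42 CPM, depending on the heart. Cardiomyocyte markers were abundant, with a summed level of 57780 to 67010 CPM over 8 genes, and 3 atrial genes summed to 0.84 to 2.05 CPM, as the ventricular label implies. Differential expression was tested across 13092 genes with edgeR's quasi-likelihood test, and a gene was called where it passed 0.05 after Benjamini-Hochberg adjustment and changed by more than 1.5-fold. This test called 14 genes, 0.107% of those tested. It called none of the 8 tested complement genes. Of these 8, 2 genes, Cfp and Cd55, had an unadjusted p below 0.05, against 8.82% of all tested genes. Both had been reported as differentially expressed in the first analysis of these same hearts. edgeR's exact test, DESeq2 and limma-voom also called 0 of the 8.

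The fitted change was above 0 for all 8 tested genes, with a median log2 fold change of 0.41, while 50.2% of all tested genes had a fitted change above 0. This shared direction is partly fixed by the choice of genes. C1qa, Cfp and Cd55 had been reported as differentially expressed in the first analysis of these same hearts, and earlier results were known. For none of the 9 genes did the caffeine-treated hearts separate from the vehicle hearts. For comparison, each caffeine heart was above each vehicle heart for 7.11% of the tested genes. The same hearts stood at the top and the bottom for most genes. Caffeine 1 was the highest heart for 5 of the 8 genes and caffeine 3 for 2, whereas caffeine 2 was never among the top 2. Vehicle 3 was the lowest heart for 5 genes. With 3 hearts against 3, an exact permutation test of a single gene can give no p below 0.1, and the 9 genes gave values between 0.2 and 1. The test used log2(CPM + 0.5) and was two-sided.

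**Figure D1:**
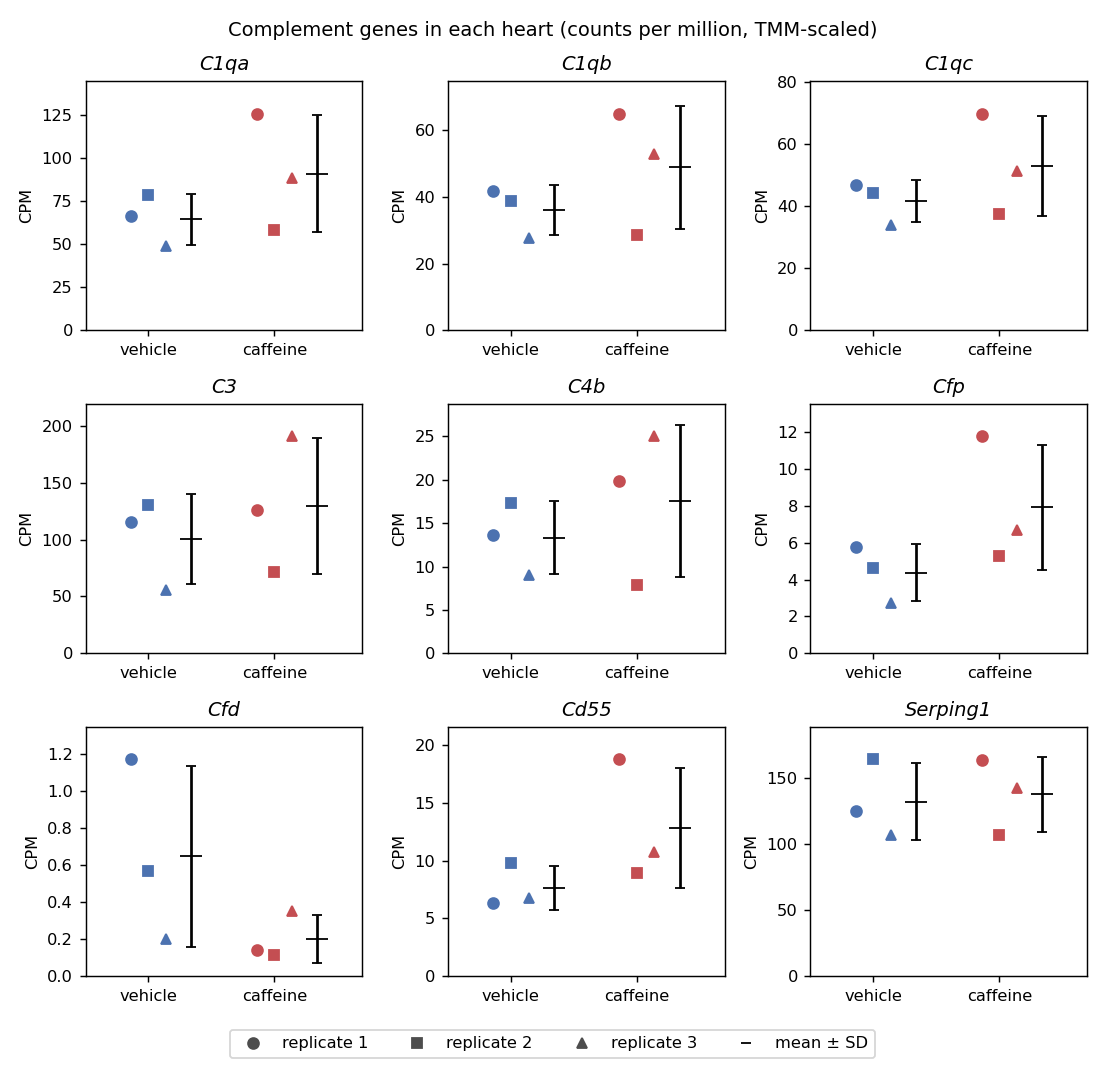
Levels of the 9 complement genes in each heart, in TMM-scaled CPM on axes that start at 0, with vehicle hearts in blue and caffeine-treated hearts in red; marker shapes show the replicate, and bars give the mean ± SD of 3 hearts. Caffeine 2 sits within or close to the vehicle range for the genes with a raised caffeine mean, and Cfd is near 0 in most hearts.

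C1qa was the most abundant chain of C1q by count. Its level was 66.2, 78.3 and 48.9 CPM in vehicle hearts 1, 2 and 3, and 126, 58.1 and 88.5 CPM in caffeine hearts 1, 2 and 3. Caffeine 1 and caffeine 3 were above every vehicle heart, and caffeine 2 was below 2 of them. The means were 64.5 ± 14.7 CPM for vehicle and 90.8 ± 33.9 CPM for caffeine (SD, n = 3 each). The fitted log2 fold change was 0.49 with a standard error of 0.24 (95% interval -0.04 to 1.02, edgeR adjusted p = 0.606). Without caffeine 1 it was 0.18 (adjusted p = 0.904). Without the filter on low counts the edgeR adjusted p was 0.00335 at a log2 fold change of 0.47, which is under the 1.5-fold threshold.

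C1qb and C1qc encode the other chains of the molecule. C1qb was at 41.7, 38.6 and 27.7 CPM in the vehicle hearts and at 64.8, 28.6 and 52.8 CPM in the caffeine-treated hearts. C1qc was at 46.8, 44.2 and 33.8 CPM in the vehicle hearts and at 69.7, 37.5 and 51.4 CPM in the caffeine-treated hearts. For both genes caffeine 1 was highest, caffeine 3 second and vehicle 3 lowest. The log2 fold change was 0.43 ± 0.25 (SE) for C1qb and 0.34 ± 0.20 (SE) for C1qc, each with an edgeR adjusted p of 0.673. Leaving out caffeine 1 brought these to 0.17 and 0.09, and leaving out caffeine 2 brought them to 0.70 and 0.54. None of these fits called either gene. Without the filter C1qb had an edgeR adjusted p of 0.0482 at a log2 fold change of 0.41, also under 1.5-fold.

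The 3 chains kept similar proportions while their sum varied. Summed over the chains, C1q was at 155, 161 and 110 CPM in the vehicle hearts and at 260, 124 and 193 CPM in the caffeine-treated hearts. The highest sum was 2.36 times the lowest. The ratio of C1qa to C1qb, in CPM per kb of exon, ran only from 1.66 to 2.13, a range of 1.28-fold, and that of C1qc to C1qb from 0.548 to 0.739. C1qa made up 42.8% to 48.6% of the C1q counts in vehicle hearts and 46.0% to 48.3% in caffeine-treated hearts, so the treatments overlapped. The lowest and the highest share were both in the vehicle group. Their 95% Wilson intervals did not overlap, at 40.4% to 45.3% in vehicle 1 and 46.2% to 51.0% in vehicle 2. Wilson intervals treat each read as independent, whereas reads copied by PCR are not independent molecules. The intervals may thus be too narrow, and this gap does not show variation beyond counting error.

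**Figure D2:**
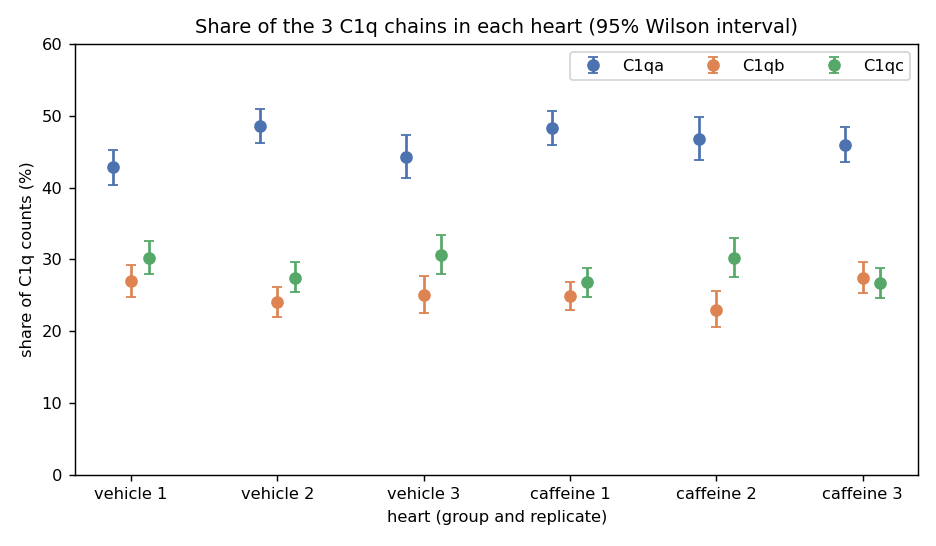
Share of C1qa, C1qb and C1qc in the summed C1q counts of each heart, in percent, with 95% Wilson intervals; the chains are offset sideways for clarity. C1qa holds 42.8% to 48.6% in all 6 hearts and the other chains hold 23.0% to 30.6%, with no separation of the treatments.

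Lists of cell type markers were set beside these levels, because bulk RNA cannot tell fewer cells of a type from less RNA per cell. The macrophage list put the hearts at the extremes in the same order as C1q. Its 15 genes summed to 255, 274 and 177 CPM in the vehicle hearts and to 390, 215 and 325 CPM in the caffeine-treated hearts. Caffeine 1 was again highest, caffeine 3 second and vehicle 3 lowest. Of the 13 macrophage genes tested, 11 had a fitted change above 0 and 4 had an unadjusted p below 0.05. Over all tested genes these shares were 50.2% and 8.82%, and 7.11% had each caffeine heart above each vehicle heart. The test called none of the 13, and their median log2 fold change was 0.34. Adgre1, which encodes F4/80, separated the treatments, with 3.88 to 4.98 CPM in vehicle hearts and 5.76 to 9.62 CPM in caffeine-treated hearts (log2 fold change 0.93, edgeR adjusted p = 0.226). Csf1r, the receptor for macrophage growth factors, and Fcgr1, an Fc receptor, separated them too, at log2 fold changes of 0.34 and 0.82. Cd68, a lysosomal macrophage protein, did not, at a log2 fold change of 0.05. Lyz2 (lysozyme) and Folr2, a marker of resident macrophages, had log2 fold changes of 0.50 and 0.73, with edgeR adjusted p of 0.581 and 0.561. For Folr2, caffeine 1 was at 15.3 CPM and caffeine 2 at 5.19 CPM, inside the vehicle range. Lyve1 and Mertk, the 2 genes of the list with a fitted change below 0, had log2 fold changes of -0.007 and -0.045. The part of macrophage number in the C1q levels was not tested.

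C3, the protein on which all routes converge, showed the widest spread of the abundant complement genes. Its gene lies on the minus strand at chr17:57203970-57228136. C3 was at 116, 131 and 55.8 CPM in the vehicle hearts and at 126, 71.3 and 191 CPM in the caffeine-treated hearts. Caffeine 3 was highest, vehicle 3 lowest and caffeine 2 second lowest, so the treatments were interleaved. The log2 fold change was 0.36 ± 0.34 (SE), with a 95% interval from -0.38 to 1.10 and an edgeR adjusted p of 0.824. It depended on caffeine 3, without which the value was -0.03.

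C4b encodes C4, which C1s cuts once C1q has bound. The gene lies on the minus strand at chr17:34728380-34743882. It was at 13.7, 17.3 and 9.02 CPM in the vehicle hearts and at 19.9, 7.90 and 25.0 CPM in the caffeine-treated hearts. As for C3, caffeine 3 was highest, but the lowest heart was caffeine 2. The log2 fold change was 0.39 ± 0.35 (SE), with an edgeR adjusted p of 0.811, and fell to 0.04 without caffeine 3. C3 and C4b kept a similar ratio across hearts. C3 stayed at 6.19 to 9.03 times the CPM of C4b, while the ratio of C3 to summed C1q ran from 0.484 to 0.990. C4b values are uncertain to the extent that reads could be shared with its close copy C4a, which had 1 to 5 counts in the vehicle hearts and 2 to 12 in the caffeine-treated hearts.

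Properdin (Cfp), which stabilises the alternative C3-cleaving complex and is made mainly by white blood cells, had the largest fitted change of the 8 genes. It lies on the minus strand at chrX:20925454-20931555. Cfp was at 5.76, 4.64 and 2.74 CPM in the vehicle hearts and at 11.8, 5.31 and 6.68 CPM in the caffeine-treated hearts. Caffeine 1 stood well above the rest, caffeine 3 was second, and caffeine 2 was below vehicle 1. The means were 4.38 ± 1.53 CPM and 7.92 ± 3.40 CPM (SD, n = 3 each), and the fitted fold was 1.78 (log2 0.83 ± 0.33 SE). The unadjusted p of edgeR was 0.0284 and the adjusted p 0.496. The log2 fold change was 0.45 without caffeine 1 and 0.59 without vehicle 3. These levels rest on 27 to 84 counts per heart.

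Factor D (Cfd) is the protease that starts the alternative route and is known as adipsin, since fat cells make it in large amounts. The gene lies on the plus strand at chr10:79890853-79892655. Only 12, 6 and 2 counts were recorded in the vehicle hearts and 1, 1 and 3 in the caffeine-treated hearts, too few to pass the filter, so that Cfd was not tested. Most of the vehicle counts came from vehicle 1, and the treatments overlapped. Scaled to total counts, the ratio of caffeine to vehicle was 0.295 with a counting interval of 0.0867 to 0.811 (5 counts against 20). Without vehicle 1 it was 0.479, and the interval of 0.123 to 1.66 included 1. These intervals hold counting error alone and not the spread between hearts. Fat cell markers had few counts as well. Adiponectin (Adipoq) had 2, 3 and 0 counts in the vehicle hearts and 1, 0 and 0 in the caffeine-treated hearts, and Cidec, a lipid droplet protein, had 11, 8 and 0 against 1, 0 and 1. Car3, a carbonic anhydrase abundant in fat, had 33, 36 and 9 counts against 5, 6 and 5. Plin1, which coats lipid droplets, had 5, 1 and 3 against 1, 0 and 1, and Retn had a single count in all hearts together. Vehicle 1 and vehicle 2 thus held most counts of Cidec and Car3, as of Cfd. Adig, which is also on the fat cell list and was named after its values were seen, did not share this order, with 9, 12 and 21 counts against 13, 17 and 18 (log2 fold change 0.50). The part of residual fat in the Cfd counts was not tested. The 10 fat cell genes summed to 32.5 to 36.0 CPM and 28.6 to 33.5 CPM, most of it from Cidea, which was named after its values were seen and was at 25.5 to 30.1 CPM in all hearts.

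Cd55, a membrane-anchored regulator that speeds the decay of the C3-cleaving complexes, was the other gene with an unadjusted p below 0.05. It lies on the minus strand at chr1:130439027-130462744. Cd55 was at 6.35, 9.84 and 6.79 CPM in the vehicle hearts and at 18.8, 8.92 and 10.8 CPM in the caffeine-treated hearts. Caffeine 1 stood well above the other hearts, caffeine 3 was slightly above vehicle 2, and caffeine 2 was below it. The fitted fold was 1.65 (log2 0.72 ± 0.27 SE, 95% interval 0.12 to 1.33), with an unadjusted p of 0.0224 and an adjusted p of 0.444 from edgeR. Without caffeine 1 the log2 fold change was 0.36. A fit without the filter on low counts, over 22407 genes, called both Cd55 and Cfp (edgeR adjusted p = 0.0099 and 0.0278) and 240 genes in all. The related gene Cd55b had no count in any heart, and an antisense gene that overlaps Cd55 had at most 1 count.

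Serping1 blocks the C1r and C1s proteases and was among the most abundant of the complement genes. It lies on the minus strand at chr2:84765387-84775444. Its level was 124, 164 and 107 CPM in the vehicle hearts and 163, 107 and 142 CPM in the caffeine-treated hearts. The treatments covered the same range, and the highest heart was only 1.53 times the lowest. The log2 fold change was 0.06 ± 0.17 (SE), and its 95% interval of -0.32 to 0.44 did not reach 1.5-fold in either direction. The edgeR adjusted p was 0.96.

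**Figure D3:**
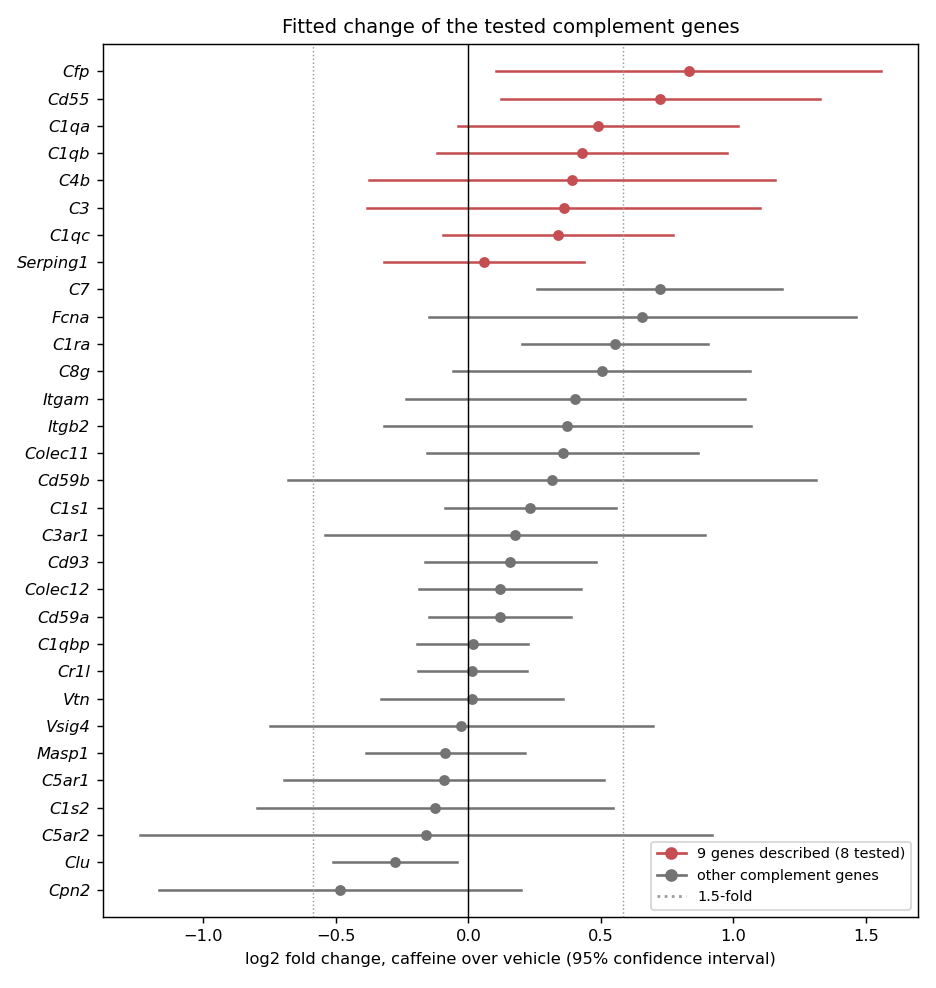
Fitted log2 fold change of caffeine over vehicle with its 95% confidence interval for the 8 tested genes (red) and the other 23 tested complement genes (grey); dotted lines mark 1.5-fold. All 8 red points lie above 0, and the intervals of Cfp and Cd55 alone among them do not cross it.

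Per kb of exon, the order of the mean levels over the 6 hearts was C1qa (74.7 CPM per kb), Serping1 (57.9), C1qb (38.9), C1qc (24.5), C3 (22.4), Cfp (3.54), C4b (2.72), Cd55 (2.11) and Cfd (0.461). C1qa was above Serping1, Serping1 above C1qb and C1qb above C1qc within each of the 6 hearts, although their ranges over hearts overlapped. This order depends on the length used, which took in all annotated exons of a gene, 1931 bases for C1qc against 1088 for C1qb. In CPM without length, Serping1 was above C1qa in every heart, and C1qc was above C1qb in every heart but caffeine 3. C1qc was above C3 in 4 of 6 hearts, Cfp above C4b in 3 and C4b above Cd55 in 4, so these neighbours did not differ beyond their spread. The ranges of C3 and Cfp, and those of Cd55 and Cfd, did not touch. The transcripts thus fell into an abundant group, made up of the C1q chains, Serping1 and C3, and a scarce group made up of the rest.

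The remaining complement genes were taken from a list of 45. Of these, 23 passed the filter and 11 had no count in any heart. The genes without a count included the lectin pathway starters Mbl1 and Mbl2, complement C5 (Hc), C8a, C8b and C9, and C4bp, which are made chiefly by the liver. A count of 0 allows a level of up to 0.284 to 0.42 CPM, depending on the heart. None of the 23 was called by edgeR. Of them, 3 had an unadjusted p below 0.05, against 8.82% of all tested genes. A fitted change above 0 was found for 16 of the 23 (69.6%), against 50.2% of all tested genes. The median log2 fold change of the 23 was 0.12, against 0.41 for the 8 genes described above and 0.00 for all tested genes. However, the first analysis of these same hearts reported 3 of the 9 genes as differentially expressed, C1qa, Cfp and Cd55, and 0 of the 45. The genes were chosen with earlier results known, so the gap between these medians partly reflects that choice.

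Among the proteases, C1ra, which is activated inside the C1 complex, was at 7.4 to 9.87 CPM in the vehicle hearts and at 11.9 to 14.4 CPM in the caffeine-treated hearts. The treatments did not overlap, and the log2 fold change was 0.55 ± 0.16 (SE, edgeR adjusted p = 0.297). Its partner C1s1 was at 11.9 to 15.1 CPM and 14.7 to 18.3 CPM, with a log2 fold change of 0.23. The next substrates were scarce. C2 had 2 to 10 counts per heart, and factor B (Cfb) had 1, 2 and 2 counts in the vehicle hearts and 0, 1 and 0 in the caffeine-treated hearts. The lectin Fcna had a log2 fold change of 0.66 ± 0.37 (SE).

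Of the terminal genes, C7, a subunit of the membrane attack complex, was at 15.1, 17.6 and 20.97 CPM in the vehicle hearts and at 30.8, 20.1 and 37.8 CPM in the caffeine-treated hearts. Caffeine 2 was below vehicle 3, and the log2 fold change was 0.72 ± 0.21 (SE, edgeR adjusted p = 0.297). C8g, named after its values were seen, separated the treatments at 1.99 to 2.43 CPM and 2.93 to 3.36 CPM (log2 fold change 0.50, edgeR adjusted p = 0.618). Clusterin (Clu), which binds the terminal complex among many other proteins, had a fitted change below 0. It was at 720, 626 and 588 CPM in the vehicle hearts and at 468, 560 and 568 CPM in the caffeine-treated hearts, with a log2 fold change of -0.28 ± 0.11 (SE, edgeR adjusted p = 0.463). C1ra and C8g were the only genes of the 23 with every caffeine heart above every vehicle heart, against 7.11% of all tested genes, and Clu was the only one with every caffeine heart below, against 7.12%. These counts are near or under those shares.

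None of the receptors had an unadjusted p below 0.05. C3ar1 and C5ar1, which bind the small fragments cut from C3 and C5, had log2 fold changes of 0.18 (95% interval -0.54 to 0.89) and -0.09 (-0.69 to 0.51). That of C5ar2 was -0.16, and that of Cpn2, a carrier subunit of the enzyme that inactivates those fragments, was -0.49 ± 0.31 (SE). Cd59a, which blocks assembly of the membrane attack complex, was at 81.5 to 96.1 CPM in vehicle hearts and 86.2 to 117 CPM in caffeine-treated hearts (log2 fold change 0.12).

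Fibroblast and interferon response genes were set beside the complement genes too. The 10 fibroblast genes summed to 2100, 2225 and 1854 CPM in the vehicle hearts and to 2809, 2543 and 2322 CPM in the caffeine-treated hearts, so each caffeine heart was above each vehicle heart. All 10 had a fitted change above 0, 5 had an unadjusted p below 0.05 and none was called by edgeR. The median log2 fold change was 0.27, with 0.38 for Col1a1, a collagen chain, and 0.28 for decorin (Dcn). Dcn and the collagen gene Col3a1 separated the treatments. The 16 interferon response genes summed to 274, 260 and 205 CPM against 631, 258 and 396 CPM, and all had a fitted change above 0, with a median of 0.81. Of these, 11 had an unadjusted p below 0.05, none was called by edgeR, and Gbp2, Gbp3, H2-Aa and H2-Eb1 separated the treatments. H2-Eb1 ran from 1.61 to 10.8 CPM within the vehicle hearts alone. Over all tested genes, 8.82% had an unadjusted p below 0.05 and 7.11% had each caffeine heart above each vehicle heart. Relative to the mean of the vehicle hearts, caffeine 1 was at 2.56 for the interferon genes, 2.54 for Cfp and Cd55 together, 1.83 for the C1q chains and 1.24 for Serping1. Caffeine 2 was at 1.05, 1.18, 0.874 and 0.812. The part of interferon response or fibroblast number in the complement levels was not tested. The first analysis of these same hearts reported C1qa, Cfp, Cd55, Lyz2, Folr2 and 10 of the 16 interferon genes as differentially expressed. Their direction is therefore no independent evidence, and edgeR's quasi-likelihood test here called none of them.

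**Figure D4:**
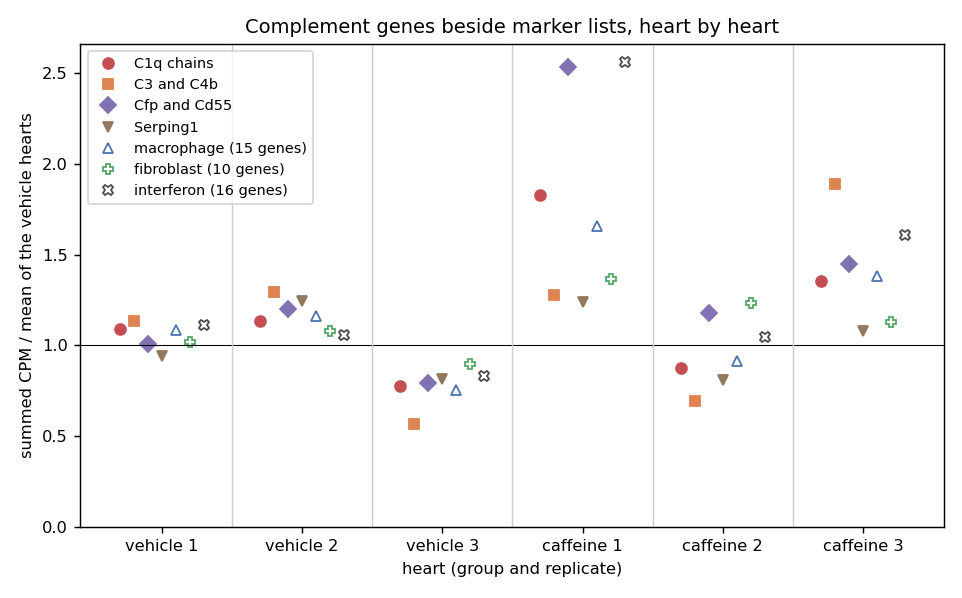
Summed level of complement genes (filled) and of marker lists (open) in each heart, divided by the mean of the 3 vehicle hearts, on an axis that starts at 0; the line marks 1. Caffeine 1 reaches 2.54 for Cfp with Cd55 and 2.56 for interferon genes, while caffeine 2 is at 0.695 for C3 with C4b and 0.874 for the C1q chains.

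Genes with the most similar pattern were sought among 8265 tested genes with a mean of at least 10 CPM, by Pearson correlation of log2 CPM over the 6 hearts. These are descriptions, since many genes compared over 6 hearts will include high values, and all points share the libraries and their depth. For the mean of the C1q chains the closest were Rab8a (r = 0.991), Sfrp1 (0.983), Parn (0.979), Mfap5 (0.979) and Rnase4 (0.978). Mfap5 ran from 20.1 CPM in vehicle 3 to 34.7 CPM in caffeine 1, and Rab8a only from 25.9 to 30.2 CPM in the same hearts. Cfd had too few counts for a pattern, and C3 was used in its place after the counts were seen. The closest genes to C3 were Gda (r = 0.97), Psmd5 (0.969), Ctnnal1 (0.963), Erlec1 (0.962) and Bivm (0.961). Gda was lowest in vehicle 3 at 29.6 CPM and highest in caffeine 3 at 45.3 CPM, as was C3.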

How the data were processed

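Left ventricular RNA of 3 vehicle and 3 caffeine-treated hearts was analysed. Per the labels and methods, the authors selected poly(A) RNA and checked single-end reads with FastQC. TopHat2 placed the reads on mm10 (GRCm38), and HTSeq made gene counts from the annotation of Ensembl release 79. The deposited values are raw counts, and no replicates were pooled. The strand setting of the counting was not given in the sources used here.

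Counts were filtered with filterByExpr (minimum count 10, minimum total 15), which left 13092 of 22407 genes with a count, scaled by TMM (factors 0.94 to 1.072) and fitted with edgeR 4.0.16 (glmQLFit and glmQLFTest, R 4.3.3) with treatment as the only term. Adjusted p-values are Benjamini-Hochberg values over all tested genes. Scripts were tested on simulated data. Alternatives were DESeq2 1.42.0, limma-voom (limma 3.58.1), edgeR's exact and robust tests, other scalings, no filter, a replicate block and each heart left out. Total counts of 7613011 to 10483101 put the limit of 3 counts at 0.284 to 0.42 TMM-scaled CPM. Positions and exon lengths are from GENCODE release 21 of GRCm38, not the counting annotation.

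The 9 genes, the other complement genes and the marker lists were chosen with earlier results of these data known. The text names all 9, the partners C1ra, C1s1, C2, Cfb, C3ar1, C5ar1, Cd59a and Clu, the 3 other complement genes with the largest fitted change in each direction, and a few markers per list. Fcgr1, Lyve1, Mertk, Col3a1, C8g, Actc1, Adig, Cidea and the 4 interferon genes were named after their values were seen. Amino acid sequences were not used here. 1 other complement gene is not reported here.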

Additional observations from a re-analysis of the deposited data

How the results depend on the processing

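The log2 fold changes of the 8 tested complement genes kept their direction and their side of the threshold in 106 of 112 alternative fits. In 4 the direction changed, namely -0.033 for C3 without caffeine 3 (range -0.033 to 0.65 over the hearts left out), and for Serping1 -0.027 with library size only, -0.070 without vehicle 3 and -0.081 without caffeine 1 (range -0.081 to 0.25). In the other 2, fitting without a filter, Cfp (0.81, adjusted p = 0.0278) and Cd55 (0.70, adjusted p = 0.0099) were called, which made 2 of the 8 called. C1qa (0.47, adjusted p = 0.00335) and C1qb (0.41, adjusted p = 0.0482) passed 0.05 in that fit too, but not 1.5-fold. Without a filter C7 was the 1 other complement gene called. Over all genes, 14 were called, against 27 with library size only, 240 without a filter, 94 with edgeR's exact test and 67 with DESeq2. Leaving out each heart gave 4 to 28. Same-numbered hearts deviated from their group means with correlations of 0.045, -0.03 and -0.0375, and differently numbered hearts with -0.0828 to 0.12. With so few hearts per group, these values cannot tell whether the replicate numbers pair the hearts. With the replicate block 40 genes were called over all genes, but none of the complement genes. The cause of these differences was not tested. Genes under about 10 counts, Cfd first, could not be compared at this depth.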

Other observations

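Other cell types were measured by lists that the complement comparison did not use. The 8 endothelial genes summed to 708 to 822 CPM in the vehicle hearts and 740 to 788 CPM in the caffeine-treated hearts, with 4 fitted changes above 0 and 4 below and a median of 0.02 on the log2 scale. Among 8 cardiomyocyte genes, 6 had a fitted change below 0, with a median of -0.06, and Actc1 alone separated the treatments, with the caffeine-treated hearts above. Haemoglobin and other erythroid genes summed to 712 to 1332 CPM and 770 to 1627 CPM, with a median of -0.03 over 4 tested genes. The 4 tested granulocyte genes had a median of 0.16, and their list summed to 7.29 to 12.3 CPM in the vehicle hearts and 4.06 to 19.3 CPM in the caffeine-treated hearts, lowest in caffeine 2 and highest in caffeine 1.

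Mesothelial genes, which mark the outer surface of the heart, summed to 8.92 to 17.2 CPM and 10.7 to 17.2 CPM, with a median log2 fold change of 0.14 over 3 tested genes. Lymphocyte genes were too scarce to test. Summed over 7 genes, they were at 0.879 to 1.42 CPM in the vehicle hearts and 1.52 to 2.66 CPM in the caffeine-treated hearts. These ranges did not overlap, but each gene had only 0 to 7 counts per heart, too few to read the gap as a difference. The single atrial gene tested had a log2 fold change of -0.26. edgeR's quasi-likelihood test called no gene of these 7 lists, and none had an unadjusted p below 0.05.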
